A study of Saccharina japonica with 9 samples.

Results

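DNA methylation was described on 15 scaffolds of the kelp *Saccharina japonica* that the study's list of nuclear tRNA genes places on chromosome 4 (10 scaffolds) or chromosome 17 (5 scaffolds). They are 15 of the 291 scaffolds that this list places and that hold listed sites, and of 9613 nuclear scaffolds in all. Their summed length is 5.59 Mb, of which 3.68 Mb lie on chromosome 4 and 1.91 Mb on chromosome 17, and they were cut into 565 bins of 10 kb. The placement of a scaffold uses no methylation value, but the chromosomes were picked with earlier results of these libraries known, so that their excess in MG is no independent observation. The chromosomes are linkage groups to which the study anchored its scaffolds, and genes and sequences along the scaffolds were not analysed here.

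Whole-genome bisulfite sequencing was available for 9 libraries of the strain Ye-c12, 3 each of male gametophytes (MG, age 2 months), female gametophytes (FG, age 2 months) and sporophytes (SP, age 4 months). The gametophytes had been taken from 1 sporophyte blade and multiplied as clones, and the sporophytes came from crossing FG and MG. The libraries of a stage may therefore share a clone, and the tests measure only the spread between these libraries, which may be technical. Each library came from the entire body, and the 3 stages share the strain.

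In the kelp life cycle the gametophytes are haploid and the sporophyte, which arises from their fusion, is diploid. Cytosines can be methylated in the CpG, CHG and CHH contexts, where H is any base but G, and methylation is known to differ between contexts and tissues in plants and algae. Bisulfite turns unmethylated cytosines into bases that are read as thymine, so that a read still showing cytosine counts as methylated. The number of reads over a cytosine, its coverage, sets which sites can be called at all.

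The lists hold cytosines called as methylated (mCs), with a coverage of at least 5 reads and at least 1 methylated read. The 9 libraries listed 684742 to 6255023 nuclear mCs, with a median coverage of 7 to 9 reads. MG replicate 3 and FG replicate 3 were covered more deeply than the other libraries of their stages. SP replicate 1 stood apart within its stage. On the 15 scaffolds it listed 19221 mCs, against 8414 and 9500 in the other SP libraries, and its CpG share there was 24.7% to 32.1% per scaffold, against 53.0% to 65.0% in them. The coverage calls and the median ratios of methylated reads against SP are therefore also given without SP replicate 1.

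The tRNA gene that places each scaffold was as follows. On chromosome 4, scaffold61 carries an Arg-TCT gene, scaffold162 Tyr-GTA, scaffold209 the initiator iMet-CAT, scaffold326 Val-CAC, scaffold352 Leu-AAG and scaffold586 Ala-TGC. Thr-AGT genes lie on scaffold260, scaffold611, scaffold784 and scaffold785 of chromosome 4 and on scaffold252 of chromosome 17. The other chromosome 17 scaffolds carry Ser-GGA (scaffold84), Lys-CTT (scaffold345), Arg-ACG (scaffold429) and Leu-AAG (scaffold777). A tRNA carries the amino acid of its name to the codon that its anticodon, the last letters of the name, pairs with.

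The methylation level summed over called sites was higher in MG than in FG on all 15 scaffolds, and SP was lowest throughout. The level of a scaffold is the sum, over its mCs, of the share of reads that were methylated, per Mb of scaffold. Coverage sets which sites are listed, so what coverage and methylation each contribute to this level cannot be told apart. The 3 MG libraries lay above the 3 FG libraries on 15 of 15 scaffolds, while this held for 14.7% of the 2307 nuclear scaffolds of at least 50 kb and the reverse for 1.73%. The exact two-sided permutation p was 0.1 on each of the 15 scaffolds, the smallest that 3 libraries against 3 allow. MG exceeded FG by 1.33 to 1.92 times in mean level.

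On chromosome 17 the ratio was widest on scaffold252 (413.0 kb). Its level was 1687, 1680 and 1531 per Mb in MG, 848, 648 and 1050 in FG and 373, 214 and 242 in SP. Scaffold777 (212.7 kb) had 1951, 1904 and 1745 in MG, 1106, 812 and 1275 in FG and 397, 283 and 280 in SP. On both scaffolds the lowest MG library exceeded the highest FG library by more than the MG libraries differed among themselves. Scaffold84, the longest of chromosome 17 at 606.5 kb, had the highest MG level of the 15, with 2087, 2140 and 1941 in MG, 1313, 1025 and 1494 in FG and 469, 323 and 325 in SP. Scaffold345 (359.6 kb) had 1732, 1742 and 1620 in MG, 1082, 793 and 1240 in FG and 367, 231 and 235 in SP. Scaffold429 (319.4 kb) had 1982, 1979 and 1822 in MG, 1360, 1092 and 1515 in FG and 478, 314 and 339 in SP. It had the narrowest ratio of MG to FG on this chromosome, 1.46 times, and it is one of the scaffolds on which the difference stopped part of the way along, as described further on.

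On chromosome 4 most scaffolds were close to each other. Scaffold61 (665.7 kb), the longest, had 1852, 1879 and 1776 in MG, 1218, 948 and 1404 in FG and 389, 195 and 216 in SP. Scaffold162 (495.5 kb) had 1662, 1733 and 1647 in MG, 1024, 794 and 1193 in FG and 343, 156 and 186 in SP. These levels differed little between the 3 MG libraries and more between the FG libraries, where replicate 2 was lowest and replicate 3 highest on all 15 scaffolds. Scaffold352 had the highest level of chromosome 4, with 2045, 2019 and 1934 in MG, 1416, 1123 and 1526 in FG and 449, 237 and 265 in SP. Scaffold784 had the lowest, with 1316, 1405 and 1253 in MG, 794, 603 and 996 in FG and 251, 107 and 129 in SP. The ratio of MG to FG was nonetheless close on these 4 scaffolds, between 1.48 and 1.67 times. Scaffold785 differed from them, with 1398, 1444 and 1421 in MG, 1099, 854 and 1263 in FG and 342, 149 and 199 in SP, and its ratio of 1.33 was the smallest of the 15.

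The 5 remaining scaffolds of chromosome 4 lay between these. The means were 1827 ± 60.1 in MG, 1165 ± 224.9 in FG and 256 ± 112.4 in SP for scaffold209, and 1747 ± 61.7, 1105 ± 205.8 and 249.8 ± 93.1 for MG, FG and SP on scaffold260 (SD, n = 3 each). Scaffold326 averaged 1819 ± 31.2 in MG, 1126 ± 223.6 in FG and 257 ± 96.4 in SP, and scaffold586 averaged 1754 ± 129.1, 1071 ± 220.9 and 244 ± 109.2 in the same order. Scaffold611 was lower in every stage, with 1452 ± 61.5 in MG, 859 ± 157.6 in FG and 186 ± 88.9 in SP. The groups did not overlap on any of them.

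**Figure D1:**
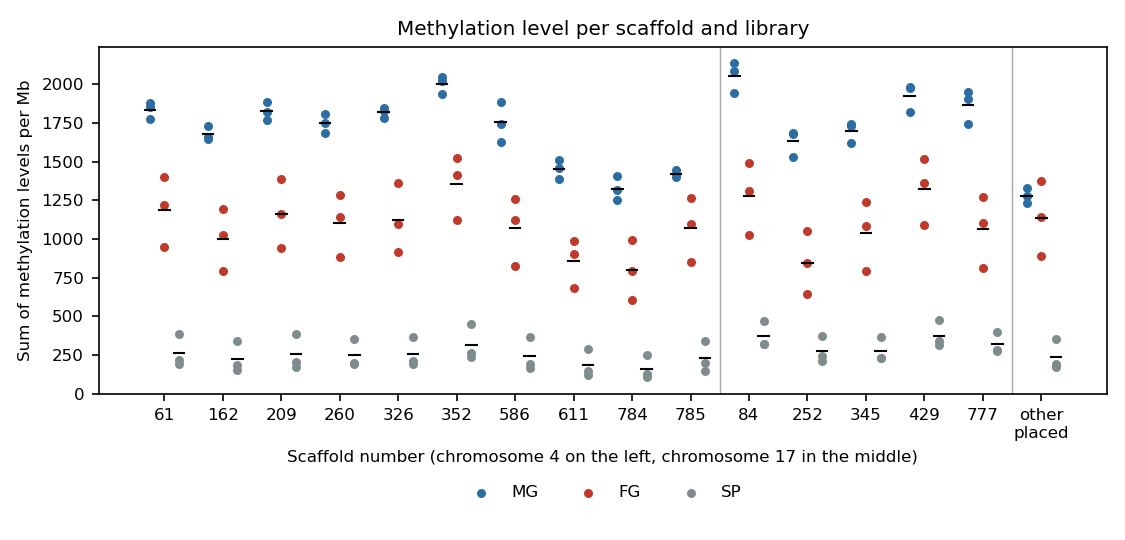
Methylation level (sum of methylation levels of mCs per Mb) of each scaffold in MG, FG and SP, with 1 point per library and the mean as a bar, and on the right the level over the other placed scaffolds. MG lies above FG on all 15 scaffolds, while on the other placed scaffolds the MG points (1232 to 1333) fall within the range of the FG points (891 to 1373).

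The excess was seen in MG and, on chromosome 17, in SP. The other placed scaffolds used for comparison are those outside chromosomes 4, 7, 9, 12, 17 and 29, with chromosome 0, which the study built from scaffolds outside its linkage map, included. Set against them, the level of chromosome 4 was 1.41, 1.40 and 1.26 times as high in the MG libraries. It was 0.984, 0.989 and 0.946 times as high in FG and 1.02, 1.03 and 1.03 times in SP. Chromosome 4 thus stood at the level of the other chromosomes in FG and SP. For chromosome 17 the same ratios were 1.54, 1.495 and 1.31 in MG, 1.01, 0.996 and 0.968 in FG and 1.18, 1.61 and 1.47 in SP. These ratios of chromosome sums are given as a description, without a test.

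Counts of methylated reads were compared scaffold by scaffold with edgeR's quasi-likelihood test, with mapped reads as library sizes. All 15 scaffolds were called higher in MG than in FG at a Benjamini-Hochberg adjusted p below 0.05, where 7.89% of the 8750 scaffolds tested were called higher and 2.21% lower. The median log2 ratio was 0.94 on chromosome 4 and 1.12 on chromosome 17, against 0.16 over all scaffolds tested. The most changed was scaffold252, with 6310, 6537 and 6869 methylated reads in MG, 2398, 1770 and 3353 in FG and 1452, 657 and 747 in SP. It was 1.32 higher in MG on the log2 scale (SE 0.16, edgeR adjusted p = 3.04e-05). Scaffold777 followed, with 3953, 4060 and 4251 methylated reads in MG against 1673, 1186 and 2196 in FG, a log2 ratio of 1.21 (edgeR adjusted p = 5.27e-05). The least changed was scaffold785, with 2494, 2723 and 3118 methylated reads in MG against 1714, 1315 and 2305 in FG. Its log2 ratio was 0.57 (SE 0.15, edgeR adjusted p = 0.0252), and the call was lost when any library except FG replicate 3 was left out, at a log2 ratio of 0.47 to 0.60. On the other 12 scaffolds the log2 ratio lay between 0.86 and 1.12. Counting only mCs covered by at least 10 reads left 2 of the 15 calls (scaffold252 and scaffold777), although the median log2 ratio of the 15 was then 2.06.

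Against SP, both gametophyte stages carried more methylated reads on every scaffold, as nearly everywhere in the genome. MG was called higher than SP on 15 of 15 scaffolds, where 92.6% of all scaffolds tested were called higher and 0.478% lower, with log2 ratios of 2.65 (scaffold429) to 3.57 (scaffold784) and a median of 2.59 over all scaffolds tested. FG was called higher than SP on 15 of 15, where 89.6% were called higher. The FG to SP log2 ratio was 2.31 to 2.58 on chromosome 4 and 1.66 to 1.98 on chromosome 17, against a median of 2.41 over all scaffolds tested. With edgeR's TMM scaling, which centres the ratios near 0, none of the 15 scaffolds was called higher in FG than in SP and the 5 scaffolds of chromosome 17 were called lower, at log2 ratios of −0.77 (scaffold252) to −0.47 (scaffold345), where 2.15% of all scaffolds were called lower with that scaling (0.626% without it). For MG against SP, TMM scaling left 14 of 15 scaffolds called higher, where 6.19% were, with a median log2 ratio of 0.75 over the 15, and scaffold429 was not called (log2 0.06, edgeR adjusted p = 0.737). Likewise, the levels of MG above SP and of FG above SP did not overlap on any of the 15 scaffolds, with 99.9% and 98.1% of the scaffolds of at least 50 kb doing the same. Without SP replicate 1 and with mapped reads as library sizes, the median log2 ratio of the 15 was 3.74 for MG to SP. For FG to SP it was 2.82, and the medians over all scaffolds tested were then 3.05 and 2.85. The comparisons share libraries with each other and are not independent.

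The mCs of these scaffolds were also covered by more reads in MG. The relative coverage is the mean coverage of the mCs of a scaffold over that of all nuclear mCs of the library. Compared with limma on the log2 scale, it was called higher in MG than in FG on 14 of 15 scaffolds, where 7.65% of the 3306 scaffolds tested were called higher and 8.71% lower. The log2 ratio was 0.42 to 0.52 on chromosome 17 and 0.12 to 0.34 on chromosome 4, against a median of −0.02 over all scaffolds tested. On scaffold84 the relative coverage was 1.12, 1.12 and 1.19 in MG, 0.790, 0.782 and 0.820 in FG and 0.913, 1.002 and 1.006 in SP, and the ratio of MG to FG was 0.52 in log2 (SE 0.04, limma adjusted p = 0.000221). Scaffold61 had 1.02, 1.05 and 1.13 in MG, then 0.855, 0.850 and 0.862 in FG and 0.769, 0.918 and 0.906 in SP, a log2 ratio of 0.32 (SE 0.04, limma adjusted p = 0.00162). MG and FG did not overlap on either. All SP libraries lay above FG on scaffold84, while on scaffold61 SP replicate 1 lay below FG and SP replicates 2 and 3 above it.

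Scaffold611 was the exception, at 1.04, 1.07 and 1.14 in MG, 1.004, 0.995 and 0.974 in FG and 0.930, 1.06 and 1.06 in SP (log2 0.12, limma adjusted p = 0.0742). It holds a bin, from 90001 to 100000, whose mCs were covered 2.46, 2.63 and 1.98 times as deeply as the library mean in MG and 3.08, 2.55 and 3.32 times in FG. When mCs covered by more than 40 reads were left out, the scaffold's log2 ratio was 0.30 (limma adjusted p = 0.00474). All 15 scaffolds were then called higher, but the share of all scaffolds called was not counted for this setting. This alternative was chosen after the data were seen.

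**Figure D2:**
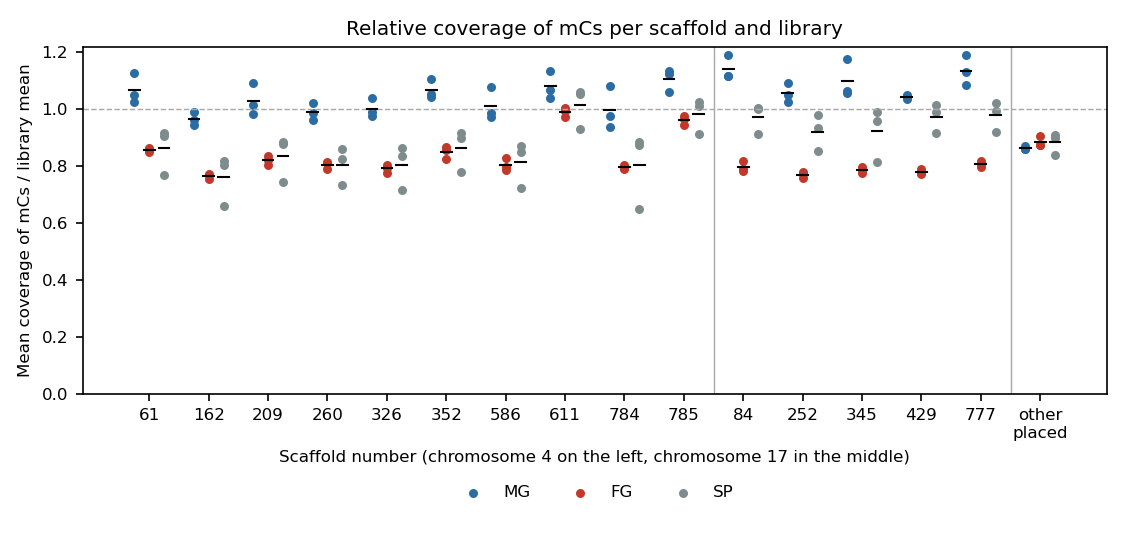
Relative coverage of mCs (mean coverage on the scaffold over the mean of the library) in MG, FG and SP, with 1 point per library and the mean as a bar, and the other placed scaffolds on the right. MG lies above FG on all 15 scaffolds, and SP lies above FG on chromosome 17. On chromosome 4 SP replicate 1 lies below the FG points, and SP replicates 2 and 3 lie above them.

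On average SP took a different place on the 2 chromosomes. On chromosome 4 the log2 ratio of coverage of FG to SP was −0.03 to 0.02, and none of the 10 scaffolds was called. That ratio averaged over unlike SP libraries. On each of these 10 scaffolds SP replicate 1 lay below every FG library, while SP replicates 2 and 3 lay above every FG library. For chromosome 17 the FG to SP ratio ranged from −0.32 (scaffold429) to −0.22 (scaffold345). There scaffold84, scaffold429 and scaffold777 were called lower in FG, 3 of 15 where 1.92% of scaffolds were called lower. MG against SP gave 0.30 to 0.35 on 8 scaffolds of chromosome 4, all called higher, and 0.09 and 0.17 on scaffold611 and scaffold785, which were not. On chromosome 17 it gave 0.10 to 0.26, with scaffold345 alone called, so that 9 of 15 were called where 4.15% of all scaffolds were. These counts rested on single libraries. Without SP replicate 1 they were 14 lower in FG and 13 higher in MG, and without SP replicate 2 they were 0 and 8. Leaving out SP replicate 1 also moved the median log2 ratio over all scaffolds tested. It went from −0.02 to −0.08 for FG to SP and from −0.03 to −0.10 for MG to SP. The medians of the 15 were then −0.10 and 0.18, and the share of all scaffolds called was not counted for this setting. Without any 1 of the FG libraries, or without SP replicate 3, no scaffold was called lower in FG, and without MG replicate 1, 2 or 3 the MG count was 2, 0 or 0.

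Along the scaffolds the difference between MG and FG was spread over nearly the whole length. Of the 565 bins, 515 were called higher in methylated reads in MG and 0 lower, against 8.46% called higher and 2.28% lower among the 57915 bins tested. The median log2 ratio was 0.95 on chromosome 4 and 1.18 on chromosome 17, against 0.16 over all bins. On scaffold84 61 of 61 bins were called higher, on scaffold252 42 of 42 and on scaffold777 22 of 22. Coverage could be tested in 536 bins, of which 459 were called higher in MG and 1 lower, where 6.49% of all bins tested were called higher and 4.16% lower. The median log2 ratio of coverage was 0.34 on chromosome 4 and 0.50 on chromosome 17, against −0.02 over all bins.

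On 3 scaffolds the difference began or ended within the sequence. These stretches were read from the coverage of the bins after it had been seen, so they are described without a test. On scaffold345 of chromosome 17 the first 70.0 kb had 7 tested bins with log2 ratios of coverage between −0.11 and 0.05, none of them called, and from position 70001 on all 28 tested bins were called, at 0.37 to 0.63. Levels and methylated reads differed between the stretches as well. In the first 70.0 kb they were 1276, 1330 and 1523 per Mb in MG and 1097, 820 and 1354 in FG, which overlap, and over the remaining 289.6 kb they were 1842, 1841 and 1643 in MG, against 1078, 786 and 1213 in FG. The relative coverage of FG was about the same on both sides (0.768 ± 0.016 and 0.792 ± 0.015, SD, n = 3), while that of MG was 0.765 ± 0.016 in the first stretch and 1.14 ± 0.083 in the second.

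Scaffold429 showed the same step near its end. Its first 240.0 kb had 22 of 22 tested bins called higher in coverage, at log2 0.39 to 0.63, and from position 240001 none of 7, at −0.10 to 0.03. The level was 2187, 2188 and 1976 in MG, against 1424, 1143 and 1575 in FG before the step. Past it the levels were 1362, 1348 and 1354 in MG, against 1165, 940 and 1334 in FG. MG thus lay far above FG on the first stretch and a little above it, without overlap, on the second. SP differed too, with a level of 416 ± 85.9 before and 258 ± 97.0 after the step and a relative coverage of 0.9997 ± 0.048 before and 0.825 ± 0.064 after (SD, n = 3).

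Scaffold785 of chromosome 4, which had the smallest ratio of levels among the 15, was the third. Its first 70.0 kb had log2 ratios of coverage of 0.21 to 0.80, with 4 of 7 bins called higher, and the other 139.1 kb had −0.59 to 0.15, with 0 of 13 called higher and 1 lower. That bin, from 90001 to 100000, was also covered deeply, at 1.17 times the library mean in MG replicate 1 and 2.09 times in FG replicate 1. The level was 1784, 1917 and 1791 in MG, against 1278, 1054 and 1363 in FG over the first stretch. The second had 1204, 1206 and 1234 in MG and 1008, 753 and 1213 in FG, which overlap. Methylated reads stayed higher somewhat longer than coverage, with log2 ratios of 0.78, 0.84 and 0.63 in the bins starting at 70001, 80001 and 90001.

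The 29 bins of these 3 stretches without higher coverage in MG held 25 of the 50 bins not called for methylated reads. Outside them 511 of 536 bins were called higher. For coverage, 0 of 27 tested bins in these stretches and 459 of 509 outside them were called higher. The stretches were picked by their coverage, so this contrast followed from the choice and is no separate result. A few isolated bins elsewhere had a coverage ratio near 0 and deeply covered mCs in both stages, such as 220001 to 230000 of scaffold61 (log2 0.01, with a relative coverage of 2.35 in MG replicate 1 and 2.33 in FG replicate 1) and 250001 to 260000 of scaffold352 (log2 −0.14, 1.64 in MG replicate 1 and 1.70 in FG replicate 1). Most bins outside the stretches that were not called for coverage were not so deeply covered. Where the relative coverage of FG was up to 1.2, 46 of 504 tested bins were not called higher, and above 1.2 this held for 4 of 5.

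**Figure D3:**
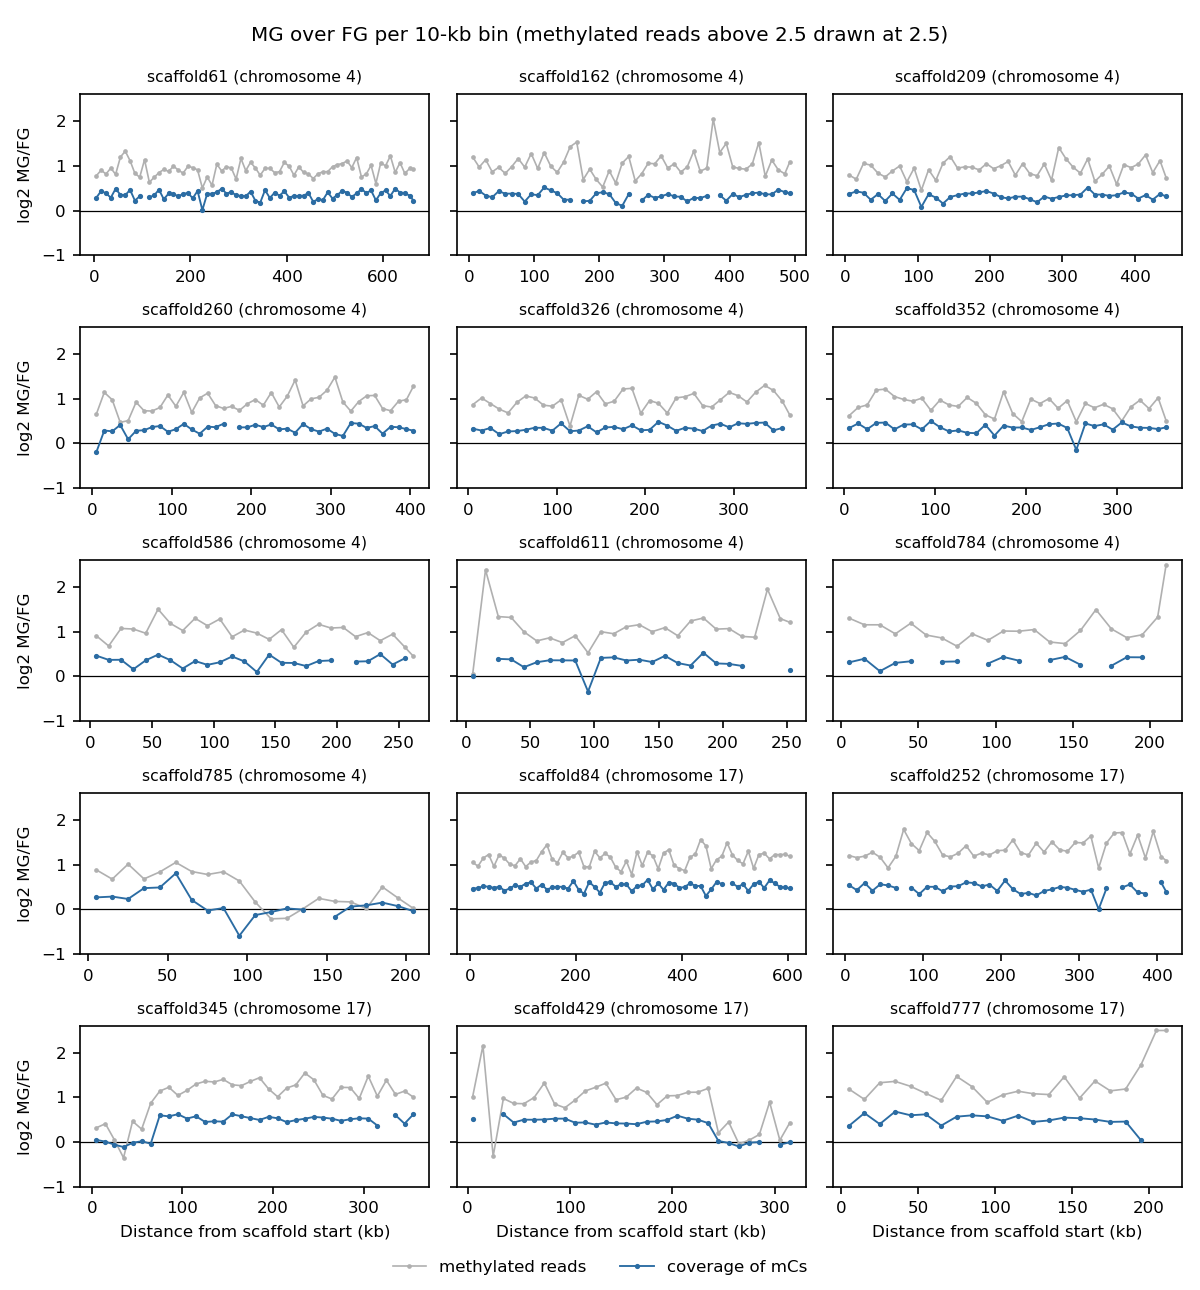
Log2 ratio of MG to FG in methylated reads (grey) and in coverage of mCs (blue) for each 10-kb bin, plotted by distance from the start of each of the 15 scaffolds. Coverage sits near 0.34 (median) on chromosome 4 and 0.50 on chromosome 17 and drops to about 0 over the first 70.0 kb of scaffold345, from 240.0 kb of scaffold429 and from 70.0 kb of scaffold785, and gaps are bins with too few mCs.

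Bins were named as the 3 with the largest and the 3 with the smallest log2 ratio of methylated reads on each chromosome, among full bins, and the bin with the most reads. On chromosome 17 the largest was 200001 to 210000 of scaffold777, with 92, 103 and 89 methylated reads in MG, 17, 3 and 14 in FG and 7, 4 and 4 in SP (log2 2.98). The next was 10001 to 20000 of scaffold429, with only 1, 3 and 7 reads in MG and 0, 1 and 1 in FG, which was not called (edgeR adjusted p = 0.357). The bin 70001 to 80000 of scaffold252 had 74, 86 and 101 reads in MG, 24, 17 and 30 in FG and 14, 6 and 4 in SP (log2 1.79, edgeR adjusted p = 3.21e-06). MG and FG did not overlap in the first and the last of these bins. The short last bin of scaffold777, from 210001 to 212669, which the rule leaves out and which was singled out after its values had been seen, had 18, 21 and 21 reads in MG, 3, 0 and 0 in FG and 5, 2 and 4 in SP.

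The smallest ratios of chromosome 17 lay mostly in the stretches without higher coverage in MG. The bin 30001 to 40000 of scaffold345 had 66, 77 and 90 methylated reads in MG, 88, 67 and 126 in FG and 35, 13 and 8 in SP (log2 −0.35, edgeR adjusted p = 0.538). The bin 260001 to 270000 of scaffold429 had 144, 111 and 132 in MG, 135, 81 and 163 in FG and 47, 22 and 13 in SP (log2 −0.04). MG and FG overlapped in both. In the bin 20001 to 30000 of scaffold429 a single library decided the value. It had 19, 16 and 19 reads in MG, 6, 3 and 57 in FG and 6, 4 and 1 in SP, with a log2 ratio of −0.32 that became 1.82 (edgeR adjusted p = 0.0386) without FG replicate 3.

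On chromosome 4 the largest ratio was in 10001 to 20000 of scaffold611, with 110, 107 and 130 methylated reads in MG, 22, 9 and 32 in FG and 19, 5 and 6 in SP (log2 2.38). The bin 370001 to 380000 of scaffold162 had 24, 34 and 26 in MG, 3, 4 and 12 in FG and 3, 1 and 1 in SP (log2 2.05, edgeR adjusted p = 0.0013). The bin 230001 to 240000 of scaffold611 had 78, 39 and 60 in MG, 10, 13 and 20 in FG and 5, 4 and 2 in SP (log2 1.95). In all 3 bins the lowest MG library exceeded the highest FG library.

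The 3 smallest ratios of chromosome 4 were adjacent bins of scaffold785, within its second stretch. From 110001 they held 74, 67 and 93 methylated reads in MG and 70, 58 and 130 in FG, then 58, 49 and 81 in MG and 66, 49 and 89 in FG, then 45, 47 and 60 in MG and 48, 31 and 64 in FG. MG and FG overlapped in each, with log2 ratios of −0.21, −0.20 and 0.01. The bins with the most methylated reads were the first of scaffold209 on chromosome 4, with 257, 270 and 370 in MG, 172, 127 and 186 in FG and 61, 36 and 39 in SP, and 90001 to 100000 of scaffold429 on chromosome 17, with 225, 280 and 271 in MG, 120, 151 and 152 in FG and 79, 35 and 30 in SP. They gave log2 ratios of 0.80 and 0.77 in reads and of 0.37 and 0.53 in coverage.

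Against SP, all 565 bins were called higher in MG, where 98.9% of all bins tested were (0.0679% lower), and 561 of 563 tested bins were called higher in FG, where 97.5% were (0.403% lower). With TMM scaling 201 bins were called higher in MG, where 3.64% of all bins were, and none was called higher and 43 lower in FG, where 1.34% of all bins were called lower.

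The sites that differed were next split by coverage. The mCs of these scaffolds had already been covered more deeply in MG, and deeper coverage places sites in the classes of more reads. The class counts therefore depend on the coverage difference and are no separate result. Among CHG and CHH sites with 1 methylated read, sites covered by 5 to 8, by 9 to 12 and by 13 to 20 reads were counted per Mb and divided by the same count on the other placed scaffolds of that library. At 5 to 8 reads MG and FG differed less than in the other classes, with log2 ratios of −0.43 (scaffold84) to 0.12 (scaffold252). Scaffold61 had 1.08, 0.959 and 0.861 in MG and 1.06, 1.06 and 1.05 in FG, and over the 15 scaffolds MG lay above FG without overlap on 1 and below it on 3, where 8.41% and 10.2% of scaffolds did. At 9 to 12 reads MG lay above FG without overlap on 15 of 15, where 12.8% of scaffolds did, with a median log2 ratio of 1.13 on chromosome 4 and 1.27 on chromosome 17.

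At 13 to 20 reads the separation was widest, again 15 of 15, where 10.7% of scaffolds did so, and the median log2 ratio was 2.41 on chromosome 4 and 3.17 on chromosome 17. Scaffold84 had 12.7, 13.3 and 4.17 times as many such sites as the other placed scaffolds in MG, 0.836, 0.709 and 1.12 times in FG and 4.80, 5.02 and 4.599 times in SP. Scaffold61 had 6.72, 7.87 and 3.17 times in MG, 1.31, 1.11 and 1.13 times in FG and 1.33, 1.29 and 1.43 times in SP. On scaffold61 SP overlapped FG and lay below all MG libraries, and on scaffold84 SP lay above all FG libraries, below MG replicates 1 and 2 and above MG replicate 3. MG replicate 3, the deepest MG library, had the smallest excess over the other placed scaffolds on all 15 scaffolds. This order depended on the divisor. When the sites per Mb were divided by the mapped reads of the library instead, MG replicate 3 had the largest MG value on all 15. With CHH sites alone, or relative to mapped reads, the count at 13 to 20 reads was 14 of 15, with MG and FG overlapping on scaffold785. The exact two-sided permutation p of MG against FG was 0.1 for each scaffold in the classes of 9 to 12 and of 13 to 20 reads. These tests draw on the same reads as the comparison of coverage.

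**Figure D4:**
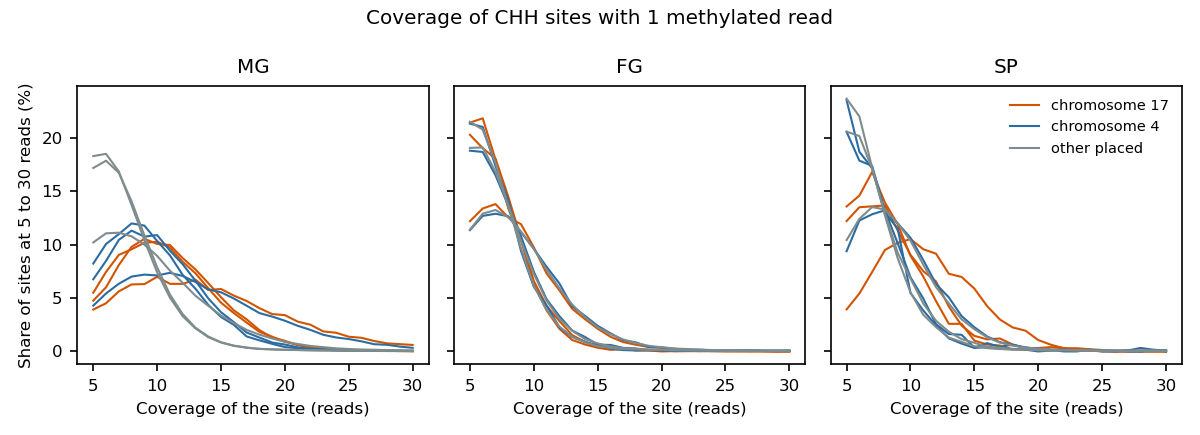
Share of CHH sites with 1 methylated read at each coverage from 5 to 30 reads, with 1 line per library, for chromosome 17, chromosome 4 and the other placed scaffolds in MG, FG and SP. In MG the lines of both chromosomes are shifted to higher coverage, in FG they lie close to those of the other scaffolds, and in SP the lines of chromosome 17 alone are shifted.

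The sites themselves were more numerous and individually weaker in MG. Together the 15 scaffolds held 87600, 92561 and 100332 mCs in MG, 44301, 33617 and 58260 in FG and 19221, 8414 and 9500 in SP. The density on chromosome 17 was 1.99, 1.97 and 1.71 times that of the other placed scaffolds in MG, 0.984, 0.981 and 0.985 times in FG and 1.44, 1.82 and 1.66 times in SP. The mean methylation level per mC on chromosome 17 was 0.109, 0.106 and 0.0916 in MG, 0.146, 0.148 and 0.127 in FG and 0.0996, 0.131 and 0.128 in SP. It was lower in MG than in FG without overlap on 14 of 15 scaffolds, the exception being scaffold785, where 6.07% of the scaffolds of at least 50 kb did so. Coverage enters this value by construction, since a site with 1 methylated read has a level of 1 over its coverage, and what coverage and methylation each contribute to the levels cannot be told apart from lists of called sites alone. Cytosines covered by fewer than 5 reads are not listed, so a ratio of coverage over listed sites need not equal the ratio of all reads.

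Sites with at least 2 methylated reads were a small share. They made up 2.98%, 3.03% and 4.26% of the mCs of these scaffolds in MG, 2.24%, 1.55% and 2.35% in FG and 0.598%, 0.987% and 1.22% in SP. On the other placed scaffolds the shares were 2.55%, 2.47% and 3.20% in MG, 2.497%, 2.02% and 3.18% in FG and 0.688%, 1.12% and 1.19% in SP. The MG shares were above those of the other scaffolds in each MG library and the FG shares below in each FG library. Coverage differed the same way. In MG 23.3%, 26.6% and 47.1% of these mCs were covered by at least 13 reads, against 7.26%, 7.63% and 22.7% on the other placed scaffolds. In FG the values were 5.81%, 4.17% and 14.9%, against 6.78%, 5.59% and 16.2%. What coverage contributes to the shares was not tested.

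The contexts differed less between MG and FG. The CpG share of mCs was 14.3% to 25.6% per scaffold in MG and 21.96% to 25.4% in FG. MG lay below FG without overlap on scaffold326, scaffold785, scaffold84, scaffold252 and scaffold345, 5 of 15, where 4.94% of scaffolds did. MG replicate 3 had the lowest share of its stage on all 15 scaffolds, from 14.3% on scaffold84 to 18.9% on scaffold260. It was also the lowest of its stage on the other placed scaffolds, with 24.1%, 23.7% and 20.8% in MG and 23.8%, 23.3% and 22.8% in FG. On scaffold84 the share was 22.1%, 21.9% and 14.3% in MG, 23.9%, 22.5% and 23.0% in FG and 27.8%, 61.9% and 61.3% in SP. Among mCs covered by at least 10 reads, the count was 2 of 15. The mCs were split evenly between the strands, with 46.3% to 53.8% on the plus strand in the MG and FG libraries.

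Individual cytosines seldom recurred. Of 406669 distinct positions listed on the 15 scaffolds, 89.3% were listed in 1 library and 9.86% in 2 libraries. Only 2 positions were listed in 6 libraries and none in more, and both are CpG sites of chromosome 4 that were singled out after their values had been seen. Position 202183 of scaffold352 (plus strand) had 4 of 8, 3 of 10 and 5 of 19 methylated reads in MG, 2 of 7 and 4 of 11 in FG replicates 1 and 3 and 1 of 14 in SP replicate 1. Position 241397 of scaffold326 (minus strand) had 1 of 6 and 2 of 10 in MG replicates 2 and 3, 1 of 8 and 7 of 12 in FG replicates 2 and 3 and 1 of 6 and 2 of 5 in SP replicates 1 and 2. At these depths the levels of a site cannot be told apart between stages.

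Among placed scaffolds, chromosomes 4 and 17 stood out from most others. On the 160 placed scaffolds of the 27 chromosomes other than 4, 7, 17, 29 and chromosome 0, 2 were called higher and 6 lower in coverage of MG against FG, and 1 was called higher and 1 lower in methylated reads. Their chromosome medians of the log2 ratio of coverage lay between −0.14 and 0.02. Chromosomes 7 and 29 moved the other way. On chromosome 29, 5 of 6 scaffolds were called lower in MG in both measures, with median log2 ratios of −0.56 in coverage and −1.09 in methylated reads. On chromosome 7, 4 of 7 were called lower and 1 higher in coverage (median −0.16) and 5 of 7 in methylated reads (median −0.57).

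**Figure D5:**
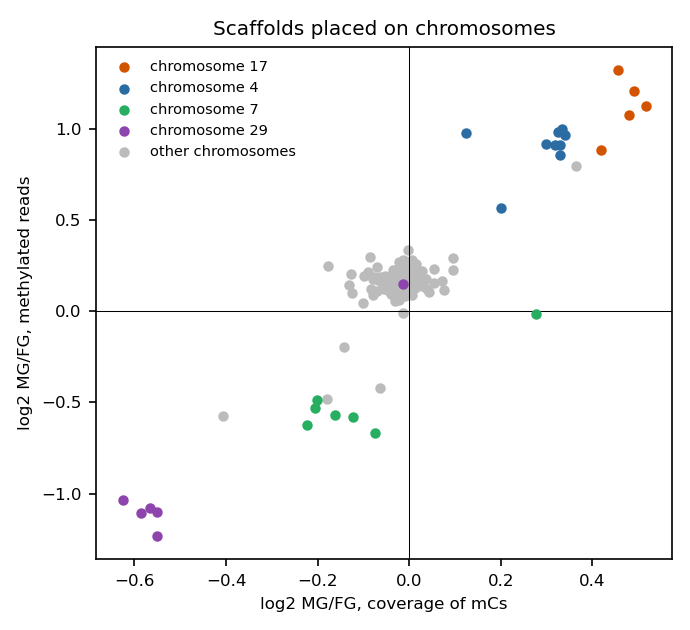
Log2 ratio of MG to FG in coverage of mCs (x axis) and in methylated reads (y axis) for the scaffolds placed on chromosomes, with 1 point per scaffold and chromosome 0 left out. The 15 scaffolds of chromosomes 4 and 17 lie at the upper right (0.12 to 0.52 in coverage and 0.57 to 1.32 in reads), most others lie near 0 in coverage, and chromosomes 7 and 29 lie mainly at the lower left.

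Higher coverage of mCs in MG was not limited to the scaffolds placed on these chromosomes. Of 1531 other scaffolds of at least 100 kb, 100 had a log2 ratio of coverage within the range of the 15 and 91 of these were called higher, together 26.6 Mb. Of the 100, 95 are not placed by the tRNA list, 3 are on chromosome 0 and the others are scaffold36 on chromosome 9 (0.36) and scaffold765 on chromosome 7 (0.28). The 5 scaffolds with the largest ratio outside the 15 were all unplaced and exceeded them. They are scaffold1275 (log2 2.40), scaffold1445 (1.67), scaffold954 (1.57), scaffold1047 (1.17) and scaffold1456 (0.96). In methylated reads their log2 ratios were 2.15, 1.17, 1.56, 0.85 and 0.36 in the same order, and scaffold1456 was not called (edgeR adjusted p = 0.228). On the 15 scaffolds the ratio of methylated reads exceeded that of coverage, while on these 5 it was the smaller, though nearly equal on scaffold954. These 5 were picked by their ratio of coverage, so this contrast partly followed from the choice and is no separate result. The 2 ratios are also scaled differently, with medians of 0.16 in methylated reads and −0.02 in coverage over all scaffolds tested. On scaffold1275 the relative coverage was 5.86, 6.24 and 7.03 in MG, 1.18, 1.22 and 1.21 in FG and 3.16, 3.07 and 2.98 in SP. SP lay between the gametophyte stages there, as on chromosome 17.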

How the data were processed

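Whole-genome bisulfite sequencing of 9 libraries was analysed. The submitters' processing notes name Bismark and FastQC, and the genome build is not given in the sources used here beyond the scaffold names. The authors deposited 1 list of called cytosines per library, with methylated and unmethylated read counts as raw values. The fraction in these deposited lists is methylated over all reads at a cytosine. The p-value columns were computed by the authors and served here only to check what the lists hold. In all 9 lists coverage starts at 5 reads, methylated reads start at 1, and adjusted p-values stay below 0.05, so that cytosines without a call are missing and not 0.

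Methylated reads were summed per scaffold and per 10-kb bin. The test was edgeR 4.0.16 on regions with at least 10 such reads summed over both stages (quasi-likelihood test, mapped reads given by the study as library sizes, no further scaling). Relative coverage was tested with limma 3.58.1 on the log2 scale, where every library compared had at least 100 mCs on the scaffold or 20 in the bin. p-values were adjusted by Benjamini-Hochberg over all scaffolds or bins. Levels and shares of single scaffolds were compared with exact two-sided permutation tests. Scaffold length is the largest listed position in any library. The fits were tested on simulated data. Depth limits single sites, since intervals on a few reads are wide and reads are not independent molecules. R 4.3.3, DESeq2 1.42.0, Python 3.11.15, numpy 2.4.6, pandas 2.3.3 and matplotlib 3.10.9 were used.

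All 15 scaffolds are named. On each chromosome the 3 full bins with the largest and the 3 with the smallest log2 ratio of MG to FG, the bin with the most reads, and outside the 15 the 5 scaffolds of at least 100 kb with the largest ratio of coverage are named as well. The members and these rules were chosen with earlier results of these data known. Alternatives were TMM scaling, DESeq2, no filter, stricter site minimums, CHH sites alone, other minimums of mCs, a replicate block, levels relative to the library mean, mCs covered by at most 40 reads (added after seeing the data) and leaving out each library.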

Additional observations from a re-analysis of the deposited data

How the results depend on the processing

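The log2 ratios of MG to FG in methylated reads and coverage stayed above 0 on the 15 scaffolds under every alternative run, and of 338 alternative values of the counts, 291 stayed within 1.5 times. Except for the TMM calls given with a share above, the share over all scaffolds or bins was not counted under the alternatives. The counts in this section therefore show how calls on the 15 scaffolds moved, and not whether they exceed those elsewhere in the genome. Not every pair of libraries with the same replicate number deviated together (r of MG and FG levels over 2307 scaffolds 0.68 for number 1, −0.14 for number 2 and 0.63 for number 3, and 0.69 for MG replicate 2 with FG replicate 1), so the numbers were not taken to pair libraries. With a replicate block 15 scaffolds (reads) and 14 (coverage) were called for MG against FG, 526 and 476 bins, 15 and 9 scaffolds for MG against SP, 15 and 3 for FG against SP, and 565 and 559 bins against SP for MG and FG. Coverage from mCs with at least 2 methylated reads could not be fitted for these scaffolds in any comparison.

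Counts moved by over 1.5 times as follows, and the cause was not tested where the alternative does not state it. Among mCs covered by at least 10 reads, scaffolds called higher numbered 2 for MG against FG and 4 for FG against SP, bins for FG against SP 6, scaffold levels of FG above SP 3, and CpG shares below FG 2. With TMM scaling, FG against SP gave 0 scaffolds higher and 5 lower, and 0 bins higher and 43 lower, MG against SP gave 201 bins higher, and MG against FG gave 1 bin lower (30001 to 40000 of scaffold345, log2 −0.51). With DESeq2, FG against SP gave 0 scaffolds higher and 5 lower, and 0 bins higher and 28 lower, and MG against SP gave 99 bins higher. Both scalings centre the median, which mapped reads leave at 0.16 for MG against FG, 2.59 for MG against SP and 2.41 for FG against SP. With levels divided by the library mean, FG lay above SP on 0 scaffolds and below on 5. Of mCs with at least 2 methylated reads, 9 bins were called for MG against FG and 207 for FG against SP, and the CpG share of MG was below FG on 1 scaffold and above on 1. The lower minimum of mCs gave 1 scaffold for the coverage of MG against SP and 1 for FG against SP, and mCs covered by at most 40 reads gave 14 and 5. At 5 to 8 reads, MG lay above FG on 0 scaffolds with CHH sites alone, and on 0 above and 0 below relative to mapped reads.

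Leaving out 1 library gave 0 to 13 scaffolds for the coverage of MG against SP and 0 to 14 for FG against SP, 0 to 1 bins lower for FG against SP, 1 to 2 bins lower in coverage for MG against FG, 5 to 8 scaffolds with the CpG share of MG below FG and 0 to 1 above, and at 5 to 8 reads 1 to 4 scaffolds above and 3 to 6 below. Beside the FG against SP ratios under TMM and DESeq2 above, with calls that turned on the 5 scaffolds of chromosome 17, the sign of an MG against FG ratio given in the text turned in 5 bins. None of the 5 was called as reported, and that from 20001 of scaffold429 was called without FG replicate 3. In scaffold785, log2 methylated reads from 110001 became 0.34 (at least 2 methylated reads), 0.088 (CHH) and −0.36 to 0.12 without 1 library, from 120001 0.19 (at least 10 reads), and from 130001 −0.14 (TMM), −0.15 (DESeq2), −1.93 (at least 2 methylated reads), −0.0174 (CHH) and −0.14 to 0.20 without 1 library. Their coverage ranged over −0.13 to 0.0026, −0.016 to 0.063 and −0.044 to 0.019 without 1 library. In scaffold429, the bin from 20001 became 0.91 (at least 10 reads), 0.052 (replicate block) and −0.78 to 1.82 without 1 library, and that from 260001 0.047 (at least 10 reads) and −0.20 to 0.11 without 1 library. Depth limits single sites and bins more than scaffolds.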
